A study of Rana omeimontis with 12 samples.

Results

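The water channels called aquaporins, the sodium-potassium pump (Na+/K+-ATPase) and the amiloride-sensitive sodium channel were followed in tadpoles of the frog Rana omeimontis, in liver and in tail tissue, after treatment with T3, the active thyroid hormone that drives metamorphosis. Unigenes, the assembled transcript groups that stand for genes in a species without a reference genome here, were taken when the protein they matched best was described as an aquaporin, as a subunit of the sodium/potassium-transporting ATPase or as an amiloride-sensitive sodium channel. Partner proteins described as interacting with one of these were set aside (4 unigenes). The wording matched 24 of 56172 unigenes, and 14 of them reached 1 FPKM (fragments per kilobase of transcript, scaled to the mapped fragments of the library, a level corrected for transcript length and library depth) in at least 3 of the 12 libraries. They were 8 aquaporins, 3 beta subunits, 1 alpha subunit and 1 gamma subunit of the pump, and 1 sodium channel subunit. The other 10 matched unigenes (8 aquaporins, 1 alpha subunit and 1 channel subunit) stayed below that minimum and went into no test, and the highest value among them was 2.04 FPKM, of a second aquaporin-8 unigene in T3 liver 3.

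The 12 libraries came from 4 groups of 3: T3 liver, control liver, T3 tail and control tail. Tadpoles at Gosner stages 30 to 31 were kept for 3 days in water with 10 nM T3, or with the solvent DMSO as the control, and both groups had food. The authors reported that T3-treated tadpoles ate less. An effect of T3 and one of reduced feeding therefore cannot be told apart in these libraries. The tail is a mixed organ of muscle, skin, notochord and vessels. How many tadpoles went into a library, and whether a liver and a tail came from the same animals, was not given in the sources used here, so that the p-values measure the spread between libraries.

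Aquaporins are membrane pores that let water, and in some members glycerol and other small solutes, cross a cell membrane. The pump uses ATP to move sodium out of the cell and potassium in: the alpha subunit carries the catalytic site, the beta subunit is needed to bring alpha to the membrane, and gamma and other FXYD proteins tune its activity. In frog skin, sodium enters the outer cell face through the amiloride-sensitive channel, built of alpha, beta and gamma subunits, and leaves through the pump on the inner face. Adult frogs take up water through skin aquaporins under the control of vasotocin, the amphibian antidiuretic hormone, whereas tadpoles take up salts mainly at the gills.

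The 12 libraries held between 773936 and 1029985 FPKM in sum, and the low values gave a relative depth that differed by at most 1.35 times between libraries. Across all 56172 unigenes, those below the minimum included, log2 levels correlated at 0.921 to 0.970 within a group. The correlation was 0.874 to 0.927 between treatments of a tissue and 0.653 to 0.740 between tissues. Hepatocyte markers, summed over 20 unigenes, took at least 7.58% of all FPKM in T3 livers, 3.75 to 5.55% in control livers and at most 0.00685% in any tail. Skeletal muscle markers (19 unigenes) took 2.34 to 3.63% in T3 tails, 3.28 to 7.27% in control tails and at most 0.00583% in any liver, and epidermal keratins (17 unigenes) took 0.275 to 0.457% in T3 tails and 0.491 to 0.993% in control tails. Erythrocyte markers (11 unigenes) took 0.366 to 0.605% in T3 tails and 0.111 to 0.367% in control tails. The libraries matched their labelled tissue, but pancreatic enzyme transcripts (26 unigenes) took 7.76 and 9.56% of FPKM in control livers 1 and 2, against 0.0376% in control liver 3 and 0.625, 0.0229 and 0.0431% in T3 livers 1, 2 and 3. Control tail 1 also stood apart: a mucin-2-like unigene and the insulin-like peptide INSL5, both known from the gut lining and chosen here after their values were seen, stood there at 25.86 and 9.81 FPKM, against at most 0.02 and 0 FPKM in the other control tails. The source of these pancreatic and gut-lining transcripts and their part in the results were not tested. Values without these libraries are given for some of the members and channel subunits only. A result given without such values may still be touched by what sets these libraries apart. In bulk tissue, fewer cells of a type and less RNA per cell cannot be told apart.

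Under T3 the tail held far more aquaporin transcript and the liver less. The summed level of the 8 aquaporin unigenes was 239, 205 and 168 FPKM in the 3 T3 tails, against 18.1, 21.0 and 10.8 FPKM in the 3 control tails. In the liver, the same sum was 69.9, 72.1 and 71.0 FPKM in T3 livers, against 132, 183 and 111 FPKM in control livers. The liver sums include aquaporin-12-like, a pancreatic form in mammals, at 21.34, 29.25 and 0.35 FPKM in control livers 1, 2 and 3. In T3 livers 1, 2 and 3 it stood at 10.34, 0.11 and 0.76 FPKM. The part of pancreatic RNA in these sums, and in the liver shares below, was not tested. Control liver 3, with few pancreatic enzyme transcripts, had 111 FPKM, above all 3 T3 livers. The sums are given as a description with no test, and the 2 tissues moved in opposite directions. The unigene that carried most of the tail sum was annotated from the tree frog Hyla japonica only as aquaporin, with no number. Called the Hyla-type aquaporin here, it made up 75.9, 72.8 and 73.1% of the aquaporin FPKM in T3 tails, against 46.1, 55.2 and 24.6% in control tails. In the liver the glycerol channel aquaporin-9 led in all 6 libraries, with 48.0, 70.4 and 54.7% of the sum in T3 livers and 47.2, 46.6 and 69.7% in control livers.

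**Figure D1:**
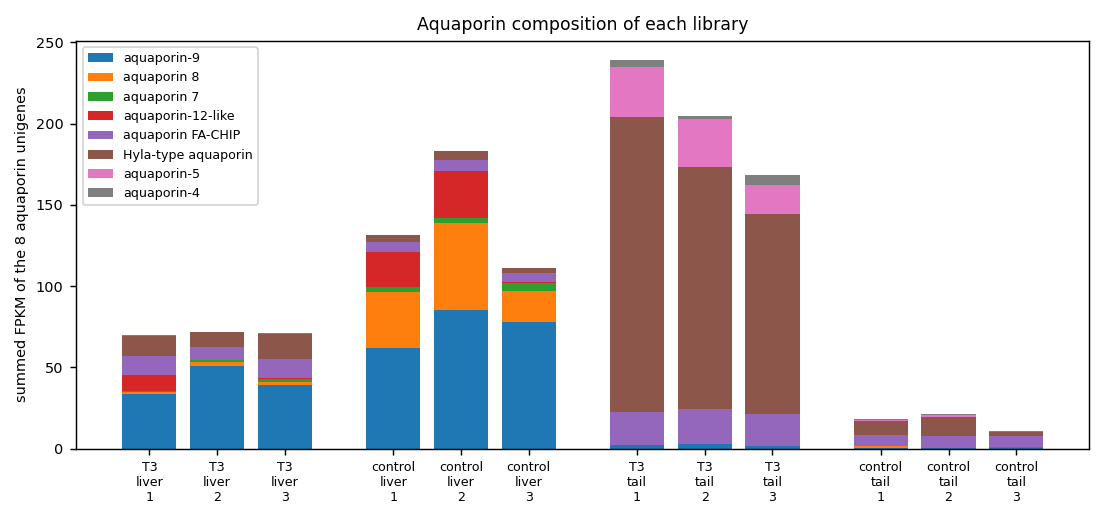
Summed FPKM (vertical axis) of the 8 aquaporin unigenes in each of the 12 libraries (horizontal axis), with the colors standing for the unigenes. The T3 tails reach 168 to 239 FPKM, mostly from the Hyla-type aquaporin, and the control tails 10.8 to 21.0 FPKM; the T3 livers stand at 69.9 to 72.1 FPKM and the control livers at 111 to 183 FPKM.

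In the tail, 7 of the 10 members with enough signal to be tested rose under T3 and none fell (limma on log2(FPKM + 1), Benjamini-Hochberg adjusted p below 0.05). Over all 18429 unigenes tested there, 25.4% were called, 19.2% as higher and 6.23% as lower. With a median-ratio scaling of the libraries those shares were 14.2 and 14.5%, and all 7 members stayed called. For aquaporin-9, aquaporin-4 and the channel subunit no control tail reached 1 FPKM, so that these 3 entered the test only through the T3 tails where they were high and could hardly have been tested without a rise. Of the other 7 members, 4 rose, and the median log2 difference of the 7 was 1.41, beside 0.31 over all unigenes tested. Aquaporin-5 was among the 4 that rose, with 1 control tail above the minimum. It too would not have been tested without its T3 tails, so the 7 are not free of this selection. In 8 of the 10 members every T3 tail stood above every control tail. Over all unigenes tested, 43.9% did not overlap between the groups in either direction and 32.9% had T3 above control. Of the 8, 3 were again the members with no control tail at 1 FPKM. Aquaporin-5, also admitted through its T3 tails, was another of the 8.

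The Hyla-type aquaporin (DN90079_c4_g2, its assembly number without the prefix TRINITY) had the highest level of any aquaporin in the T3 tails, at 181, 149 and 123 FPKM, against 8.32, 11.6 and 2.67 FPKM in control tails. All 3 T3 tails lay far above all 3 control tails, and control tail 3 was the lowest. The means were 151 ± 29.2 FPKM in T3 tails and 7.53 ± 4.51 FPKM in control tails (SD, n = 3 each), a difference of 4.32 on the log2(FPKM + 1) scale (SE 0.41, adjusted p = 4.95e-05, limma).

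Aquaporin-5 (DN113377_c3_g3), in mammals the water channel at the outer face of secretory gland cells, stood at 30.7, 29.4 and 18.1 FPKM in T3 tails, against 0.88, 1.56 and 0.03 FPKM in control tails. The groups were well apart, and in the liver this unigene was near 0, with at most 0.03 FPKM in T3 livers and 0.18 FPKM in control livers. The log2 difference in the tail was 3.95 (SE 0.36, adjusted p = 3.68e-05, limma). Only control tail 2 reached 1 FPKM among the controls, so aquaporin-5 was tested in the tail only because of its T3 tails. A partial aquaporin 5 unigene of the same assembly component, with at most 0.85 FPKM, could share its reads.

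Aquaporin FA-CHIP (DN109290_c2_g1), the frog relative of mammalian aquaporin-1, a water pore of red cells and vessel walls, had 20.5, 21.4 and 19.5 FPKM in T3 tails, against 7.27, 7.23 and 6.69 FPKM in control tails. The libraries of each group lay close together and the groups did not overlap (log2 difference 1.41, SE 0.23, adjusted p = 0.00173, limma). Erythrocyte markers, 0.366 to 0.605% of FPKM in T3 tails and 0.111 to 0.367% in control tails, were also higher on average; their part in this difference was not tested.

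Aquaporin-4 (DN93268_c4_g1), in mammals the water channel of astrocytes and of the inner face of several epithelia, had 4.38, 1.93 and 6.0 FPKM in T3 tails, against 0.18, 0.16 and 0.67 FPKM in control tails. No T3 tail reached as low as a control tail, although the T3 tails varied among themselves (log2 difference 1.86, SE 0.34, adjusted p = 0.00336, limma, for a unigene tested only because of its T3 tails). A second aquaporin-4 unigene below the minimum (DN98539_c9_g1) lay the other way. It had 0.51, 0.57 and 0 FPKM in control tails and was listed at 0 in the T3 tails. Aquaporin-9 (DN106942_c1_g2), which passes glycerol and urea as well as water, had 2.08, 2.78 and 1.54 FPKM in T3 tails, against 0.41, 0.36 and 0.29 FPKM in control tails. The level was low throughout (log2 difference 1.19, SE 0.26, adjusted p = 0.00737, limma), this unigene too was tested in the tail only because of its T3 tails, and hepatocyte markers in the same libraries were 0.00419 to 0.00685% of FPKM in T3 tails and 0.00358 to 0.00657% in control tails.

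**Figure D2:**
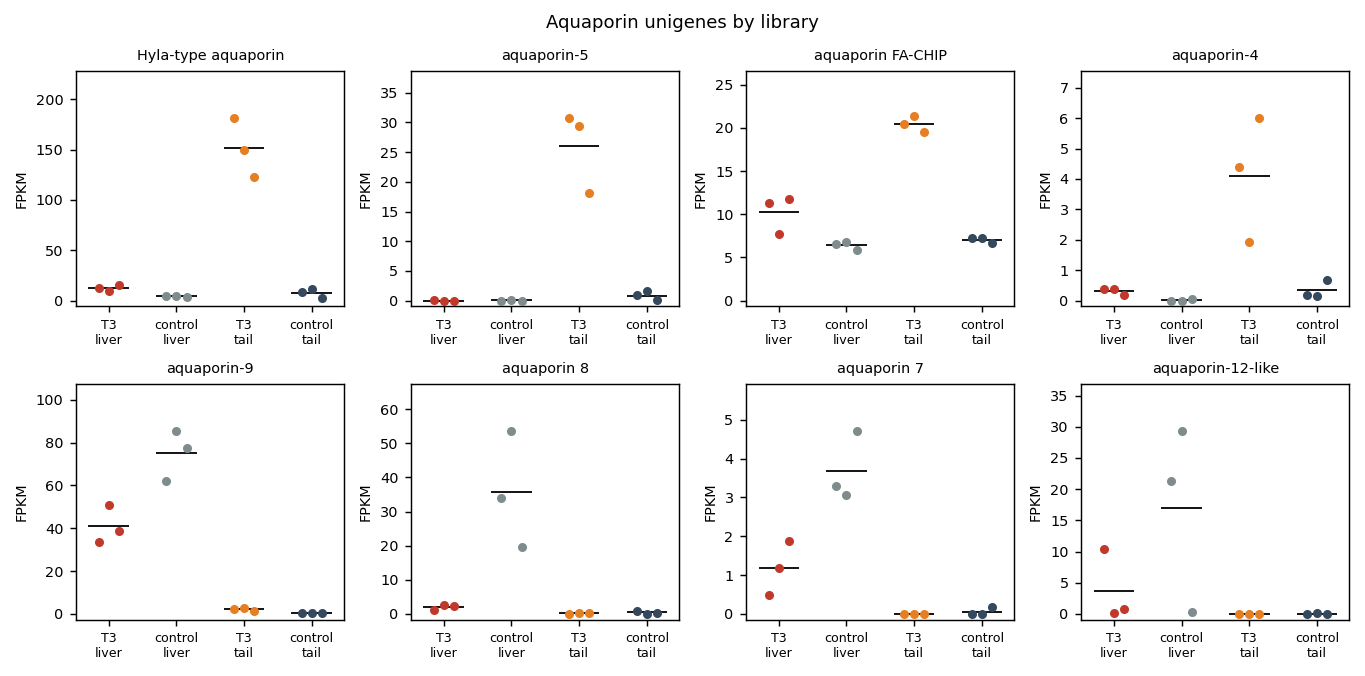
FPKM (vertical axis, linear, from 0, a separate scale in each panel) of the 8 aquaporin unigenes in the 4 groups; each point is 1 library and each line the mean of 3. The upper row holds 4 unigenes that are highest in T3 tails, at 123 to 181 FPKM for the Hyla-type aquaporin, and the lower row 4 whose mean is highest in control livers.

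In the liver, 3 of the 9 members tested were called, 1 higher and 2 lower, beside 12.5% of all 18923 unigenes (3.83% higher and 8.67% lower, or 5.39% and 3.60% with median-ratio scaling). The median log2 difference was 0.08 over the 9 members and -0.26 over all unigenes tested. Of the 9 members, 3 had every T3 liver above every control liver, 3 had every T3 liver below, and 3 overlapped, where 8.61% of all unigenes had T3 above control without overlap and 28.2% had it below.

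Aquaporin 8 (DN97286_c4_g1), which in mammals passes water, ammonia and hydrogen peroxide and is found in liver, pancreas and gut, showed the largest difference of the liver members. It stood at 1.16, 2.71 and 2.18 FPKM in T3 livers, against 34.0, 53.5 and 19.7 FPKM in control livers, and the groups were far apart. The log2 difference was -3.53 (SE 0.39, adjusted p = 0.00234, limma). Control liver 3, with a pancreatic share of 0.0376%, was the lowest control. Without control livers 1 and 2, which leaves a single control library, the log2 difference was -2.81 and the call was lost (adjusted p = 0.0765, limma).

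Aquaporin-9, the main glycerol channel of liver cells in mammals, had 33.5, 50.8 and 38.9 FPKM in T3 livers, against 62.1, 85.3 and 77.6 FPKM in control livers. The groups did not overlap, and the log2 difference was -0.86 (SE 0.23, adjusted p = 0.0473, limma). That call was marginal: it was lost without any one of 5 of the 6 libraries (log2 difference -0.99 without control liver 1, -0.77 and -0.83 without control livers 2 and 3, and -0.73 and -0.83 without T3 livers 1 and 3), without control livers 1 and 2 together (-0.92), and with median-ratio scaling (-0.54, adjusted p = 0.237, limma).

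Aquaporin 7 (DN91378_c0_g1), another glycerol channel, known in mammals from fat cells, had 0.49, 1.19 and 1.88 FPKM in T3 livers, against 3.29, 3.07 and 4.70 FPKM in control livers. All 3 T3 livers were below all 3 controls, but the adjusted p was 0.0512 (limma, log2 difference -1.14, SE 0.31, or -1.43 without control livers 1 and 2, adjusted p = 0.272). In the tail it was listed at 0 in 5 of 6 libraries and at 0.17 FPKM in control tail 3.

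The Hyla-type aquaporin was the member that rose in both tissues. In the liver it stood at 12.7, 9.24 and 15.4 FPKM in T3 livers, against 4.27, 5.02 and 3.20 FPKM in control livers, without overlap (log2 difference 1.37, SE 0.26, adjusted p = 0.0188, limma). The call was lost when any one control liver was left out, with log2 differences of 1.39, 1.49 and 1.23 without control livers 1, 2 and 3, and of 1.65 without both control livers 1 and 2 (adjusted p = 0.196, limma). Aquaporin FA-CHIP had 11.3, 7.68 and 11.7 FPKM in T3 livers and 6.51, 6.81 and 5.85 FPKM in control livers, again without overlap but with an adjusted p of 0.137 (limma, log2 difference 0.58, SE 0.23); with median-ratio scaling it passed (0.88, adjusted p = 0.0361).

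Aquaporin-12-like (DN87885_c0_g1), in mammals a pancreatic acinar cell aquaporin, ranked the livers in the same order as the share of pancreatic enzymes, but not in proportion to it. It stood at 10.3, 0.11 and 0.76 FPKM in T3 livers 1, 2 and 3, whose pancreatic share was 0.625, 0.0229 and 0.0431%. In control livers 1, 2 and 3 it stood at 21.3, 29.3 and 0.35 FPKM, with pancreatic shares of 7.76, 9.56 and 0.0376%. The 3 libraries with the larger shares were the 3 with the higher aquaporin-12-like level, and the log2 difference of -1.79 did not pass the test (SE 1.29, adjusted p = 0.396, limma).

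**Figure D3:**
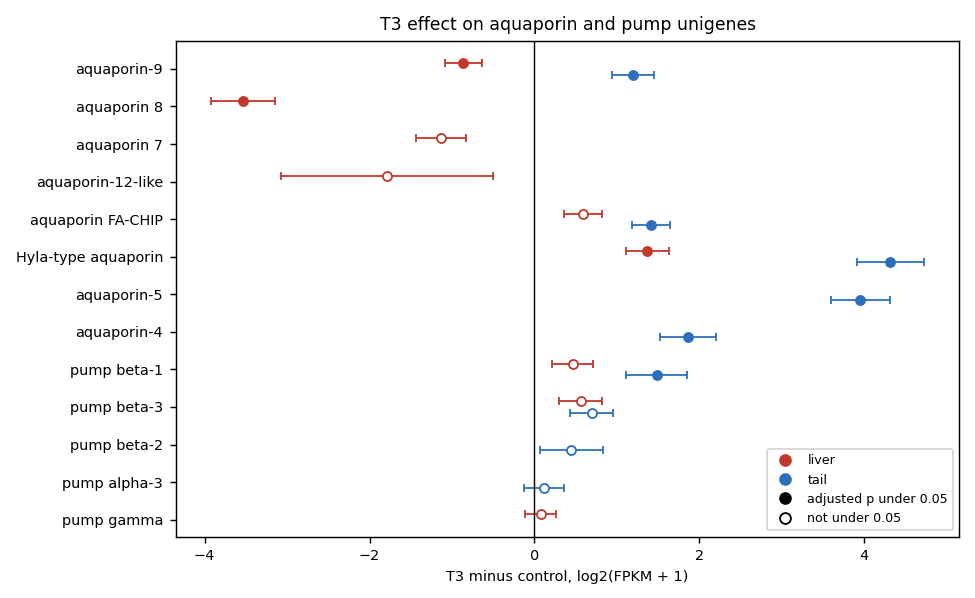
T3 minus control difference on the log2(FPKM + 1) scale (horizontal axis) of the aquaporin and pump members (rows), in liver and tail, with bars of 1 SE; filled points have an adjusted p under 0.05 (limma) and members under the minimum level in a tissue have no point there. The Hyla-type aquaporin (4.32) and aquaporin-5 (3.95) lie farthest to the right in the tail, and aquaporin 8 (-3.53) farthest to the left in the liver.

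The pump was present throughout. Beta-1 (DN92949_c4_g1), the beta subunit of most transporting cells, had 166, 184 and 146 FPKM in T3 tails, against 107, 56.4 and 32.6 FPKM in control tails. Every T3 tail was higher than every control tail, and the control tails were widely spread (means 166 ± 19.1 and 65.4 ± 38.1 FPKM, SD, n = 3 each). The log2 difference was 1.48 (SE 0.37, adjusted p = 0.0154, limma). The call was lost without T3 tail 2 (log2 difference 1.40, adjusted p = 0.0548, limma) and with no filter on level (1.48, adjusted p = 0.0508, limma). Without control tail 1 the difference was 1.92. In the liver, beta-1 had 132, 81.4 and 76.2 FPKM in T3 livers and 69.3, 75.2 and 59.0 FPKM in control livers, which did not overlap, with an adjusted p of 0.256 (limma, log2 difference 0.47).

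Beta-3 (DN98225_c10_g1) stood at 20.8, 23.1 and 17.4 FPKM in T3 tails, against 15.9, 10.1 and 11.2 FPKM in control tails. The groups did not overlap, but the difference missed the threshold (log2 difference 0.69, adjusted p = 0.0753, limma); without control tail 1 it was 0.87 and passed (adjusted p = 0.0198). In the liver beta-3 had 12.3, 6.80 and 9.88 FPKM in T3 livers and 7.13, 5.50 and 5.63 FPKM in control livers, which overlapped (adjusted p = 0.194, limma).

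Beta-2 (DN90536_c2_g2), a subunit of nerve and muscle cells in mammals, had 20.5, 16.3 and 15.1 FPKM in T3 tails and 9.86, 24.9 and 7.44 FPKM in control tails, with control tail 2 the highest of all 6. Alpha-3 (DN91175_c2_g3), the alpha subunit of nerve cells in mammals, had 2.24, 2.82 and 2.47 FPKM in T3 tails and 2.78, 1.83 and 2.15 FPKM in control tails. Both overlapped and neither passed the test (adjusted p = 0.414 and 0.753, limma). In the liver neither was tested, since beta-2 did not exceed 0.82 FPKM in T3 livers and 1.23 FPKM in control livers, and alpha-3 did not exceed 0.14 FPKM in T3 livers and 0.28 FPKM in control livers.

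The gamma subunit (DN107328_c4_g2), known from mammalian kidney as an FXYD protein that lowers the pump's affinity for sodium, belonged to the liver. It had 36.6, 40.3 and 40.4 FPKM in T3 livers and 34.5, 43.2 and 34.0 FPKM in control livers. The groups overlapped, and the log2 difference was 0.08 (SE 0.19, adjusted p = 0.82, limma). In the tail it had 0.15, 0.23 and 0.08 FPKM in T3 tails and 8.02, 0.48 and 0.33 FPKM in control tails 1, 2 and 3, so that its only tail library above 1 FPKM was the one with gut-lining transcripts.

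The alpha-1 subunit, the catalytic subunit found in nearly all animal cells, was annotated as Atp1a1a.1 and so fell outside the wording; 8 unigenes of the pump and channel under other wording were read beside the members. Of 2 unigenes named Atp1a1a.1, the first (DN108374_c4_g2) had 266, 228 and 177 FPKM in T3 tails, against 177, 126 and 99.8 FPKM in control tails. The second (DN91175_c2_g1) had 237, 219 and 177 FPKM in T3 tails, against 150, 108 and 84.1 FPKM in control tails. The second rose (log2 difference 0.91, adjusted p = 0.0297, limma) and its groups did not overlap, whereas the first did not pass (0.75, adjusted p = 0.0668), its lowest T3 tail at 176.9 lying just under its highest control tail at 177.3 FPKM. The second lost its call with median-ratio scaling (0.52, adjusted p = 0.0504). It also lost it without any one of 5 libraries, with differences of 0.89 and 0.72 without control tails 2 and 3, and of 0.83, 0.88 and 1.03 without T3 tails 1, 2 and 3. The 2 unigenes carry the same name. The second shares an assembly component with alpha-3, and the first with the alpha 2 subunit (DN108374_c4_g1). Reads could therefore have been split among these unigenes.

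In the liver the second Atp1a1a.1 had 222, 157 and 147 FPKM in T3 livers and 113, 151 and 95.4 FPKM in control livers, which overlapped (log2 difference 0.55, no call). ATP1B4 (DN94100_c8_g1), a muscle relative of the beta subunits that in mammals acts in the nucleus, had 38.8, 32.9 and 40.6 FPKM in T3 tails and 37.6, 37.0 and 28.0 FPKM in control tails, which overlapped, and was not called. The alpha 2 subunit (DN108374_c4_g1), of muscle and glia in mammals, had 27.2, 5.91 and 14.6 FPKM in T3 tails and 24.9, 3.69 and 7.47 FPKM in control tails, with a high library in each group, and was not called.

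**Figure D4:**
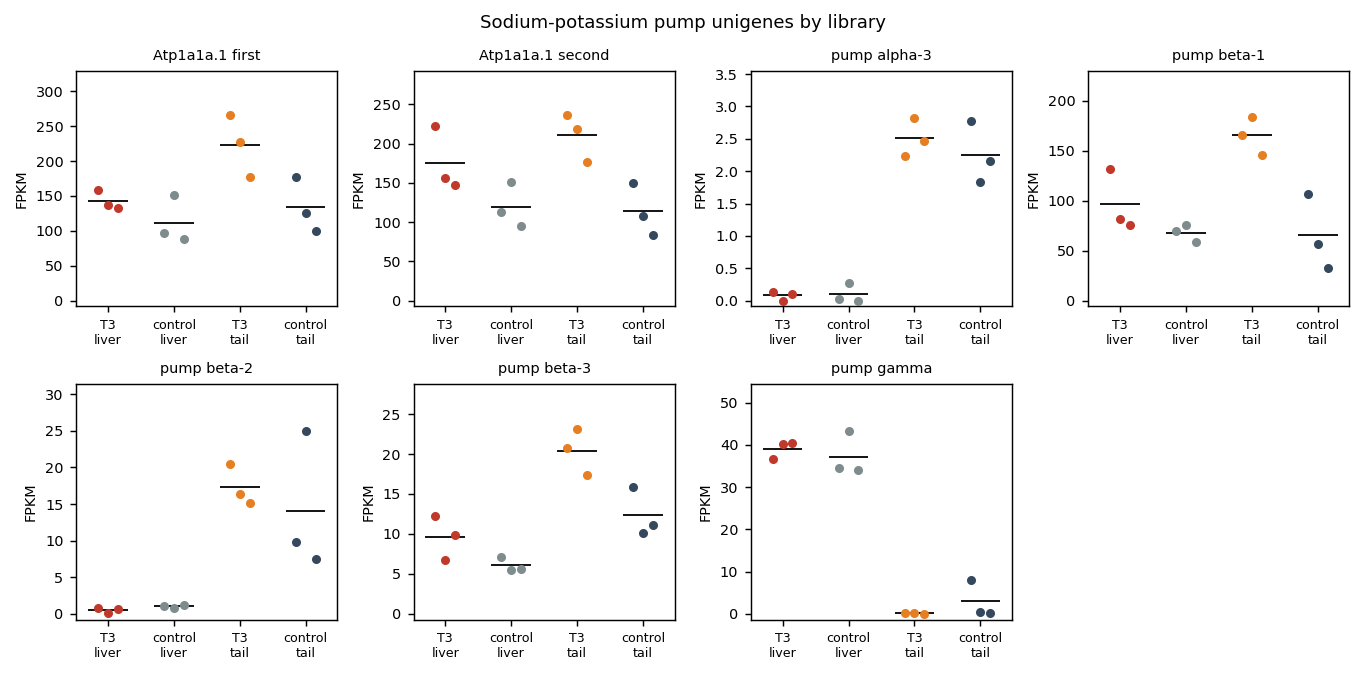
FPKM (vertical axis, linear, from 0, a separate scale in each panel) of 7 pump unigenes in the 4 groups; points are libraries and lines means of 3. Beta-1 stands at 146 to 184 FPKM in T3 tails and 32.6 to 107 FPKM in control tails, the gamma subunit is a liver unigene, and beta-2 and alpha-3 are tail unigenes whose treatment groups overlap.

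The sodium channel was the member with a value in a single group. The gamma-2-like subunit (DN108803_c6_g2) had 1.53, 1.58 and 2.53 FPKM in T3 tails and was listed at 0 in all 3 control tails and all 6 livers (adjusted p = 0.00218 in the tail, limma). It passed the minimum only through the T3 tails, so that this p belongs to a unigene selected for its presence there, and no fold is given against a group listed at 0. The channel subunits under other wording, described as the epithelial sodium channel ENaC, were read beside it. ENaC gamma (DN101109_c1_g2) had 24.1, 18.4 and 44.1 FPKM in T3 tails, against 2.96, 0.31 and 0.15 FPKM in control tails. The groups were well apart, with control tail 1 the highest control (log2 difference 3.95, SE 0.47, adjusted p = 0.000255, limma, and 4.51 without control tail 1). No other control tail reached 1 FPKM, so ENaC gamma too was tested only because of its T3 tails. A second ENaC gamma unigene of that assembly component (DN101109_c1_g7) stood at 0.30, 0.16 and 1.09 FPKM in T3 tails and was listed at 0 in the other 9 libraries.

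ENaC alpha (DN116995_c0_g2), the pore subunit the channel needs to conduct, had 5.66, 4.69 and 3.53 FPKM in T3 tails and 2.91, 3.95 and 1.43 FPKM in control tails, which overlapped, and it was not called. ENaC beta (DN88077_c0_g1) had 1.64, 1.80 and 2.63 FPKM in T3 tails and 3.93, 0.13 and 0.28 FPKM in control tails 1, 2 and 3. Control tail 1 decided that comparison: without it the log2 difference was 1.32 and passed the test (adjusted p = 0.00805, limma), and with it the groups overlapped and the difference was not called. In the liver ENaC beta had 2.15, 1.34 and 3.54 FPKM in T3 livers, against 0.54, 0.44 and 0.57 FPKM in control livers (log2 difference 1.09, adjusted p = 0.0495, limma). No control liver reached 1 FPKM, so ENaC beta was tested there only because of its T3 livers, and the call was lost without any one control liver, at log2 differences of 1.10, 1.05 and 1.11, and without control livers 1 and 2 (1.04). ENaC alpha lay the other way in the liver, with 0.49, 1.01 and 0.38 FPKM in T3 livers and 1.52, 1.09 and 1.80 FPKM in control livers, without overlap and without a call (log2 difference -0.61, adjusted p = 0.159).

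**Figure D5:**
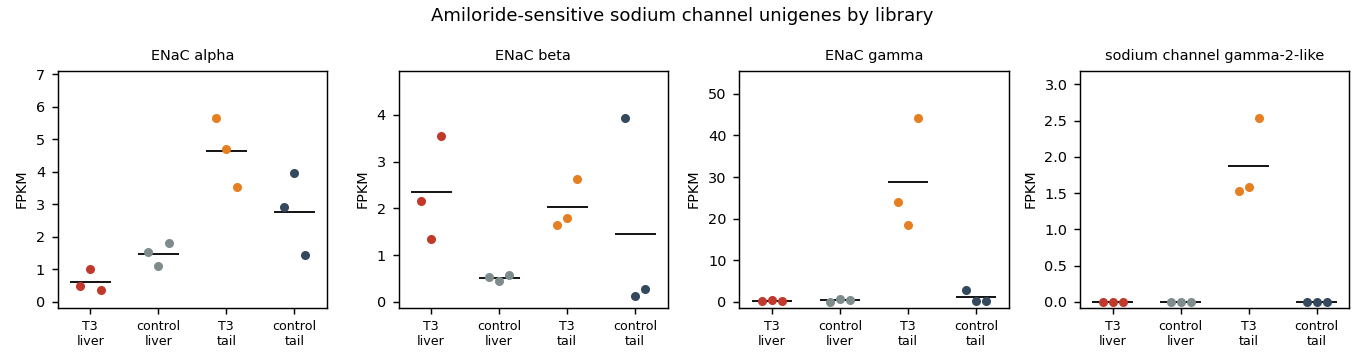
FPKM (vertical axis, linear, from 0, a separate scale in each panel) of 4 amiloride-sensitive sodium channel unigenes in the 4 groups; points are libraries and lines means of 3. Both gamma unigenes are high in T3 tails only among the 4 groups shown, at 18.4 to 44.1 FPKM for ENaC gamma, and the single high control tail for ENaC beta, at 3.93 FPKM, is control tail 1.

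The T3 effect in the liver minus that in the tail was tested across the 12 libraries. Of the 14 members, 6 differed, all with a lower value in the liver, beside 17.8% of all 24085 unigenes (14.3% lower and 3.48% higher, or 4.75% and 7.17% with median-ratio scaling). The median over the members was -1.27, beside -0.48 over all unigenes. The 6 were aquaporin-5 (-4.02, adjusted p = 9.10e-05, limma), aquaporin 8, the Hyla-type aquaporin, aquaporin-9, the gamma-2-like channel subunit and aquaporin-4. Of these, the channel subunit and aquaporin-4 again entered the test only through the T3 tails. Aquaporin-5 reached 1 FPKM in 4 of the 12 libraries, the T3 tails and control tail 2 (1.56 FPKM). It too would not have been tested without the T3 tails. Aquaporin-9 had opposite signs in the 2 tissues: the log2 difference was -0.86 for liver against 1.19 for tail, and the difference between them was -2.06 (SE 0.32, adjusted p = 0.00131). The Hyla-type aquaporin lost its call without control livers 1 and 2 (-2.66, adjusted p = 0.0507, limma). Aquaporin-4 lost its call without any one control liver (-1.499, -1.499 and -1.471) or control tail 2 (-1.40), and with median-ratio scaling (-1.05, adjusted p = 0.157). For beta-1, the difference between tissues passed the test only without control tail 1 (-1.45, adjusted p = 0.0199).

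Between control tissues, 8 of the 14 members differed, 5 higher in liver and 3 higher in tail, beside 42.9% of all unigenes (22.5% higher and 20.4% lower in liver, or 22.5% and 22.7% with median-ratio scaling). Higher in control liver were aquaporin-9 (log2 difference 5.80), aquaporin 8 (4.64), the gamma subunit (3.86), aquaporin-12-like (3.21) and aquaporin 7 (2.14). Lower in control liver were beta-2 (-2.70), alpha-3 (-1.56) and beta-3 (-0.90). The aquaporin-12-like value rests on control livers 1 and 2, the libraries with pancreatic enzymes, and its call was lost without control tail 1 or 3 (3.17 and 3.21, adjusted p = 0.0553 and 0.0513, limma). Beta-3 lost its call without control livers 1 and 2 (-0.99, adjusted p = 0.0849). The Hyla-type aquaporin, aquaporin-5, aquaporin FA-CHIP and aquaporin-4, which were raised in T3 tails, did not pass this test between control tissues; without control tail 3 the Hyla-type aquaporin (-1.09) and aquaporin-5 (-1.05) did.

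Among the channels, exchangers and cotransporters that work beside the pump, 4 of 16 tested unigenes rose in T3 tails and none fell (3 rose with median-ratio scaling), beside the 19.2% of all unigenes called higher there, which is near. In the liver 1 of 12 rose and 1 fell, beside 3.83% and 8.67%. The chloride channel CFTR (cystic fibrosis transmembrane conductance regulator), which secretes chloride, had 7.88, 4.97 and 4.97 FPKM in T3 tails, against 2.00, 1.03 and 0.68 FPKM in control tails (log2 difference 1.65, adjusted p = 0.00315, limma). An ATP-sensitive inward rectifier potassium channel 15-like, of a family that lets potassium brought in by the pump leak back out, had 9.83, 7.46 and 3.97 FPKM in T3 tails, against 1.06, 1.06 and 0.38 FPKM in control tails. Sodium/hydrogen exchanger 1, which regulates cell pH, had 15.8, 17.1 and 14.04 FPKM in T3 tails, against 9.32, 7.70 and 4.26 FPKM in control tails. None of these 3 overlapped between the groups, and the log2 differences of the channel and the exchanger were 2.09 and 1.09. The 2 called unigenes of the liver were a sodium/hydrogen exchanger 3-like, at 3.31, 3.28 and 6.37 FPKM in T3 livers, against 1.48, 1.02 and 0.88 FPKM in control livers (1.28), and solute carrier family 12 member 9, lower at 1.13, 0.62 and 0.68 FPKM in T3 livers, against 1.86, 3.29 and 3.16 FPKM in control livers (-1.05). The solute carrier was tested only because of its control livers, since only T3 liver 1 reached 1 FPKM among the T3 livers.

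NKCC1 (SLC12A2, DN108052_c2_g1), the cotransporter that brings in sodium, potassium and chloride at the inner face of chloride-secreting cells, was worded differently and was chosen after its values were seen. It stood at 36.9, 29.8 and 23.8 FPKM in T3 tails, against 3.59, 2.79 and 3.31 FPKM in control tails (log2 difference 2.87). In the liver it averaged 0.62 FPKM in T3 livers and 0.72 FPKM in control livers.

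The hormone-linked list held receptors and kinases of corticosteroid, vasotocin and prolactin action and the carbonic anhydrases, some of which supply protons and bicarbonate to transport. The list took these enzymes by name, the mitochondrial form included. In the tail 7 of its 18 tested unigenes rose and 4 fell (4 and 3 with median-ratio scaling), and in the liver 6 of 15 rose and none fell. Over all unigenes the shares were 19.2% higher and 6.23% lower in the tail (14.2% and 14.5% with median-ratio scaling) and 3.83% higher in the liver. The kinase Sgk1, known to keep the sodium channel at the membrane under aldosterone, had 66.0, 78.4 and 74.5 FPKM in T3 tails, against 11.2, 7.27 and 6.18 FPKM in control tails (log2 difference 3.04, adjusted p = 3.01e-05, limma). In the liver it had 39.6, 87.9 and 30.9 FPKM in T3 livers, against 9.78, 9.49 and 8.29 FPKM in control livers (log2 difference 2.26, adjusted p = 0.0117). A second unigene, Sgk1-A, moved the same way in both tissues (2.83 in tail, 2.34 in liver), and near-identical copies may share reads.

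The unigene described as vasotocin receptor (DN89871_c3_g1) had 8.04, 9.97 and 8.73 FPKM in T3 tails, against 1.72, 0.81 and 0.38 FPKM in control tails, and was at or below 0.04 FPKM in all livers (log2 difference in tail 2.38, adjusted p = 0.000307, limma). Only control tail 1 reached 1 FPKM among the controls, so this unigene was tested only because of its T3 tails. A different unigene, the arginine vasotocin type2 receptor (DN107693_c2_g1), the class that moves aquaporins to the membrane, went the other way, with 1.94, 1.65 and 1.47 FPKM in T3 tails, against 3.07, 5.39 and 3.15 FPKM in control tails (-0.83, adjusted p = 0.0438). The prolactin receptor, which serves a hormone of salt and water balance, had 17.7, 14.8 and 8.02 FPKM in T3 tails, against 3.61, 3.28 and 1.43 FPKM in control tails (1.93). The mineralocorticoid receptor stood at 1.84, 1.5 and 1.81 FPKM in T3 tails and 1.93, 1.94 and 1.57 FPKM in control tails, with overlap and no call.

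Carbonic anhydrase 5B, the mitochondrial form, was the most abundant called unigene of the list in the liver, at 411, 357 and 466 FPKM in T3 livers, against 45.3, 59.3 and 79.3 FPKM in control livers (log2 difference 2.75, adjusted p = 0.000909, limma). In the tail it also rose (1.22). A second unigene annotated carbonic anhydrase VB rose alongside it (2.46 in liver), and the pair may share reads.

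Of 4 FXYD regulators, 2 fell in T3 tails and none rose, beside 6.23% of all unigenes called lower there (14.5% with median-ratio scaling). FXYD1 (phospholemman, the regulator of muscle and heart) had 21.6, 16.6 and 37.2 FPKM in T3 tails, against 55.9, 59.1 and 40.2 FPKM in control tails (log2 difference -1.07). FXYD6 had 15.1, 24.4 and 20.7 FPKM in T3 tails, against 52.2, 36.8 and 40.9 FPKM in control tails (-1.09). Neither overlapped; the adjusted p-values were 0.0318 and 0.0144 (limma), and skeletal muscle markers, at 2.34 to 3.63% of FPKM in T3 tails and 3.28 to 7.27% in control tails, were also lower on average, with a part in these values that was not tested. FXYD3, an epithelial member, had 2.60, 2.05 and 1.24 FPKM in T3 livers, against 6.28, 7.37 and 10.2 FPKM in control livers (-1.60, adjusted p = 0.0144). Its level was far higher in the tail, at 174, 133 and 186 FPKM in T3 tails and 104, 160 and 52.3 FPKM in control tails. These overlapped and were not called, and the T3 effect differed between tissues (-2.36, adjusted p = 0.00762, limma).

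V-type proton pumps, which acidify compartments and drive sodium uptake in frog skin, were listed together with gastric-type pumps. Of 10 tested unigenes of the list, 6 fell in T3 livers and none rose, beside 8.67% of all unigenes called lower. With median-ratio scaling 2 fell, beside 3.60% of all unigenes. In tails 3 of 13 rose and 3 fell, beside 19.2% and 6.23%. The 16 kDa proteolipid subunit had 89.6, 61.3 and 58.3 FPKM in T3 livers, against 278, 213 and 194 FPKM in control livers (log2 difference -1.71, adjusted p = 0.0061, limma). Subunit G 1 had 211, 123 and 137 FPKM in T3 livers, against 361, 261 and 351 FPKM in control livers (-1.07). Both were without overlap. In the tail, subunits F-like (0.90) and d 1 (1.26) were higher. The 3 unigenes of the list that fell there had lower levels and are not named here. Subunit C 1 went opposite ways, at -1.15 in the liver and 1.05 in the tail, with a difference between tissues of -2.19 (adjusted p = 0.00701).

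Claudins, which seal and select the path between epithelial cells, were listed together with other tight junction proteins. Of 21 tested unigenes of the list, 8 rose in T3 tails and 1 fell, beside 19.2% of all unigenes called higher. With median-ratio scaling 4 rose, which is near the 14.2% of all unigenes called higher on that scale. Claudin 4 had 292, 356 and 271 FPKM in T3 tails, against 124, 143 and 32.8 FPKM in control tails (log2 difference 1.85, adjusted p = 0.0153, limma). Claudin 1 (1.26) and claudin 7 (1.26) were also higher, again with control tail 3 the lowest library. Control tail 3 was also the lowest control for beta-1, the Hyla-type aquaporin and aquaporin-5, and it held the highest share of muscle markers, 7.27%; the part of tissue make-up in these values was not tested. In the liver 2 of 17 unigenes of the list rose and 3 fell, beside 3.83% and 8.67% of all unigenes. Claudin 4 had 9.83, 5.36 and 5.10 FPKM in T3 livers, against 0.69, 1.47 and 0.78 FPKM in control livers (1.94). Only control liver 2 reached 1 FPKM among the controls, so claudin 4 was tested there only because of its T3 livers. The claudin 15 unigenes DN117519_c1_g1 and DN117519_c0_g1 fell there (-2.47 and -1.495). The first of these was tested only because of its control livers, since only T3 liver 3 reached 1 FPKM among the T3 livers.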

How the data were processed

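RNA-seq was run on liver and tail of T3-treated and control tadpoles, 3 libraries a group. FPKM to 2 decimals were deposited: the authors had used Trinity for the assembly, the best NR match for each unigene's description, and Bowtie with RSEM for abundance. Counts were not used here, so precision is known only as the spread between libraries. Unigenes with at least 1 FPKM in 3 of the libraries fitted were tested on log2(FPKM + 1) by limma 3.58.1 with a variance trend in R 4.3.3, each tissue alone for the T3 effect and all 12 libraries for contrasts between tissues, with Benjamini-Hochberg adjustment over all unigenes and a threshold of 0.05. A fold on this scale understates changes of low unigenes. The fit was run on simulated data in which unigenes varied independently and no library stood apart. That simulation does not cover libraries such as control livers 1 and 2 or control tail 1, and its outcome is not given here. Alternatives covered pseudocounts, filters, scalings, a replicate block and left-out libraries; values without control livers 1 and 2 and T3 liver 1, or without control livers 1 and 2 and control tail 1, were added after seeing the data. The members, the 5 gene lists and the marker lists were chosen with earlier results of these data known, and list matches to unrelated proteins were removed after reading the descriptions. Members called by a T3 test, the 3 most abundant of each family and, for the T3 tests within a tissue, the 3 most abundant called unigenes of each list were named; other names were chosen after their values were seen. The kidney list (4 unigenes) held uromodulin-worded unigenes present in every tail, 0.00348 to 0.0144% of FPKM in T3 tails and 0.0115 to 0.0414% in control tails, and was not used further. No sequence of these unigenes was used here.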

Additional observations from a re-analysis of the deposited data

Results flagged for a closer look

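The T3 effect differed between tissues, by the test of the difference itself (limma, interaction contrast over 12 libraries, Benjamini-Hochberg adjusted over 24085 unigenes), for 6 members and for ENaC gamma. The liver effect minus the tail effect, on the log2(FPKM + 1) scale, was -4.02 for aquaporin-5 (adjusted p = 9.10e-05), -4.02 for ENaC gamma (adjusted p = 0.00111) and -3.26 for aquaporin 8 (adjusted p = 0.00126). It was -2.95 for the Hyla-type aquaporin (adjusted p = 0.0034, and -2.66 with the call lost at adjusted p = 0.0507 without control livers 1 and 2), -2.06 for aquaporin-9 (adjusted p = 0.00131) and -1.49 for aquaporin-4 (adjusted p = 0.0271). For the gamma-2-like channel subunit it was -1.51 (adjusted p = 0.00304), a fitted value that depends on the pseudocount because this unigene was listed at 0 in 9 of 12 libraries. Aquaporin 8 stood at 0 to 0.26 FPKM in T3 tails and 0 to 0.99 FPKM in control tails, so its difference comes from the liver alone. In the livers, aquaporin-5 did not exceed 0.18 FPKM, ENaC gamma 0.63 FPKM and aquaporin-4 0.39 FPKM, so their differences come mostly from the tail. Without the T3 tails, these unigenes and the gamma-2-like subunit would not have been tested here. Groups of 3 libraries are too small for a single-library check of extreme values.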

How the results depend on the processing

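Of the repeats of a member's test under another setting, 832 kept the direction and the side of the threshold, 39 lost a call, 19 gained a call and 8 changed sign without being called. The 832 include repeats whose difference could not change. These were the gamma-2-like subunit between control tissues, at 0 in both, and control-tissue contrasts refitted without a T3 library. Repeats in which a member fell below the filter were not counted. The tally is therefore no measure of stability. In the liver, 3 of 9 members were called by limma. The single-unigene test at an unadjusted p called 5 of 9, beside 4858 of all 18923 unigenes. Leaving out 1 library gave 1 to 3 members by limma, the 1 (aquaporin 8) without any 1 control liver. Without control livers 1 and 2, with the single control assumed to vary like the T3 livers, none of 8 was called by limma (0, and 3 at an unadjusted p under 0.05), and without T3 liver 1 as well again 0 (3 unadjusted). All-unigene liver calls were 2365 in the full fit, 637 to 1687 with 1 library left out and 1069 with no filter. In the tail 7 members were called, and 4 of 6 with a 5 FPKM filter, beside 3483 of all 9316 unigenes at that filter. With 1 library left out, 3 to 8 were called. Without T3 tail 1, 2 or 3 the Hyla-type aquaporin, aquaporin-5, aquaporin FA-CHIP and beta-1 stayed testable. Aquaporin-4, aquaporin-9 and the channel subunit then fell below the filter, and beta-1 lost its call without T3 tail 2. All-unigene tail calls ran from 2231 to 5833 with one library left out and were 2750 with no filter, against 4688. In the difference between tissues, 4279 unigenes were called, against 2149 to 5591 with one library left out, 2722 with no filter, 2858 with median-ratio scaling, 2848 with quantile normalization, 1168 without control livers 1 and 2 and 1759 without control tail 1 as well; the members called ran from 4 to 8. Between control tissues 10321 were called, against 6350 with a 5 FPKM filter, 5537 without control livers 1 and 2 and 4904 without control tail 1 as well. Aquaporin 8 in the difference between tissues lost its call with a pseudocount of 0.1 (-3.28, adjusted p = 0.0686, limma). Uncalled effects that changed sign, where the cause was not tested, were alpha-3 in the tail (0.12 in the full fit, -0.16 with median-ratio scaling and -0.18 with quantile normalization), ATP1B4 in the tail (-0.25 and -0.13, and -0.001 to 0.22 with one library left out), the difference between tissues of alpha-3 (0.17 and 0.15) and of beta-3 (0.63 and 0.46, and -0.312 to 0.076 with one library left out), and beta-1 between control tissues (-0.20 to 0.64 with one library left out). Libraries with the same replicate number deviated together weakly between treatments (r = 0.238, 0.072 and 0.149 for livers, and 0.048, 0.032 and 0.073 for tails). Between liver and tail of the same number, r was 0.088, 0.166 and 0.068 in controls and 0.07, -0.073 and 0.166 under T3. Each control liver went best with the tail of its own number, whereas T3 liver 2 went best with T3 tail 1 (0.115). These values do not settle whether a liver and a tail of one number came from the same animals. The main fits did not pair samples, so a pairing of liver and tail, if present, was left out of the contrasts between tissues. The replicate block gave T3 and control libraries of the same number a shared term. It is therefore not a fit of liver and tail paired by animal. With this block, 4 members were called in the liver, with aquaporin 7 gained (adjusted p = 0.0472, limma). The members called were 7 in the tail, 6 in the difference and 8 between control tissues. All-unigene calls were 2177, 4796, 4051 and 10358 for liver, tail, difference and control tissues. The depth of single libraries is known only relative to each other, so levels under about 1 FPKM carry an unknown counting error.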
